A study of Mus musculus with 6 samples.

Results

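The genes described here are 33 known targets and regulators of SREBP, the sterol regulatory element-binding proteins, in epithelial cells of the mouse colon. They were taken by name as a list of 21 genes of cholesterol synthesis and its control (the sterol branch) and 12 genes of fatty acid synthesis (the fatty acid branch). Of the 33, 32 had a probe set that names no other gene and 32 lay above the floor for dim signal, out of 12071 genes above it. Acat2, an acetoacetyl-CoA thiolase of the sterol branch, was not analysed here. The 6 samples, 1 Affymetrix array each, were EpCAM-positive, CD45-negative cells sorted from the colon of wild-type male BALB/c mice aged 6 weeks. All mice had gone without food for 36 h, and the colon was taken after 24 h of renewed feeding. Of the samples, 3 came from mice given food alone (re-fed) and 3 from mice that also received antibiotics during those 24 h. The samples are labelled as biological replicates, with neither the antibiotics named nor the number of mice per sample given, so p-values measure the spread between these samples alone.

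SREBP1 and SREBP2 are transcription factors made as precursors in the membrane of the endoplasmic reticulum. When sterols are scarce, the escort protein Scap carries them to the Golgi, where proteases release the active part. Insig proteins hold the complex back when sterols are plentiful. SREBP2, the product of Srebf2, mainly drives cholesterol synthesis, while the SREBP1c form of Srebf1 drives fatty acid synthesis and responds to insulin and to the oxysterol receptor LXR. Refeeding after a fast is a classic inducer of the SREBP1c programme in liver.

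Every level below is a log2 value after quantile normalisation, so a step of 1 is a doubling, and differences are on the same scale, with the re-fed mean taken from the antibiotics mean. Levels of different probe sets are not compared. The sorted cells carried their markers, with Epcam at 12.16 ± 0.11 re-fed and 12.12 ± 0.065 with antibiotics (SD, n = 3 each), while Ptprc, which encodes CD45, lay under the floor at 5.30 to 5.54 on the 6 arrays. Exact values recurred most among 4 arrays, replicates 2 and 3 of the re-fed group and replicates 1 and 2 of the antibiotics group. The most values that each shared with another array were 418 to 435, out of 35557 probe sets. For the other arrays the most was 198. A shared normalisation of the 4 was inferred from this, and no label states it. Differences within these 4 arrays, called the common run, stand beside those over 6. Antibiotics replicate 3 stood apart with 10829 distinct values among its probe sets, where each other array held at least 34568. Values so unlike in form may rarely match exactly, so the count of matches cannot show whether this array shared that normalisation.

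No member had a limma p under 0.05 after Benjamini-Hochberg adjustment over all genes tested, where 7 genes (0.058%) did. At an unadjusted p under 0.05 there were 5 members, 15.6% of the 32, where 12.6% of all genes tested had such a p. All 5 belong to the fatty acid branch. Srebf1, Fasn and Acly had the higher means with antibiotics (3 members, in a direction held by 5.3% of all genes tested at such a p), and Elovl6 and Me1 the lower (2 members, against 7.32%). The sterol branch had 0 of 20. The groups did not overlap in 4 members (12.5%), against 19.6% of all genes tested, so the share over both branches lay under the background. All 4 belong to the fatty acid branch (33.3% of its 12 genes), and the sterol branch had 0 of 20. Of these 4 members, 3 were higher with antibiotics (8.88% of all genes tested) and 1 was lower (10.7%). Only a fit that weights arrays by their quality, which called 9.68% of all genes tested, called any members: Srebf1, Fasn, Acly and Me1.

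**Figure D1:**
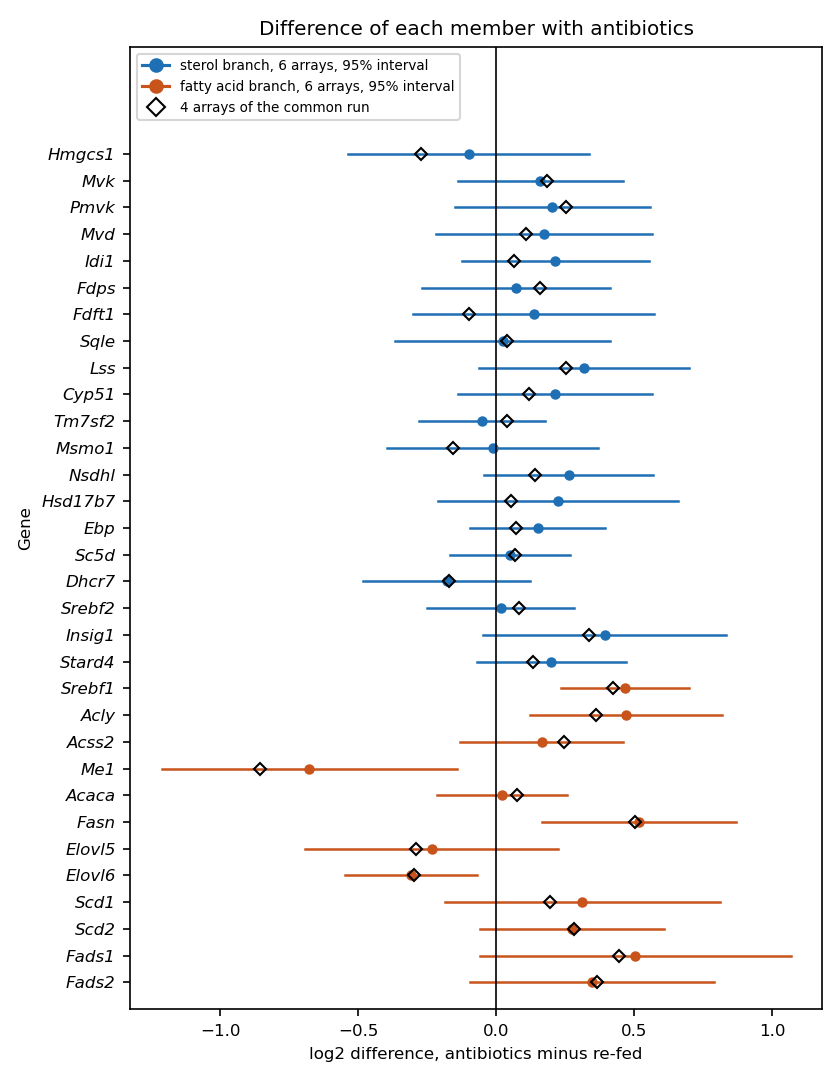
Log2 difference of each of the 32 genes, antibiotics minus re-fed (x axis), with filled points for 6 arrays, lines for unadjusted 95% intervals from limma and open diamonds for the 4 arrays of the common run. The intervals of all 20 sterol genes include 0, and those of Srebf1, Acly, Fasn, Elovl6 and Me1 in the fatty acid branch do not.

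Srebf1 stood at 8.15, 8.12 and 8.14 in re-fed replicates 1 to 3 and at 8.63, 8.47 and 8.70 in antibiotics replicates 1 to 3. All 3 values with antibiotics lay above all 3 without, and the re-fed values were nearly identical (8.14 ± 0.013). The difference was 0.47 (SE 0.10, limma adjusted p = 0.147), or 1.38-fold, and 0.42 within the common run (adjusted p = 0.129). It lay between 0.42 and 0.53 when any 1 array was left out. The gene's transcripts SREBP1a and SREBP1c start at different promoters, and the probe set was not examined for which it detects.

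Fasn encodes fatty acid synthase, which builds palmitate from acetyl-CoA and malonyl-CoA. Its levels were 9.27, 8.98 and 9.18 re-fed and 9.85, 9.32 and 9.82 with antibiotics. The groups did not overlap, although antibiotics replicate 2 lay just above re-fed replicate 1. The difference was 0.52 (SE 0.16, limma adjusted p = 0.255), or 1.43-fold, and 0.50 within the common run.

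Acly encodes ATP-citrate lyase, which makes cytosolic acetyl-CoA, the building block of both branches. Its levels were 9.90, 9.82 and 9.67 re-fed and 10.24, 9.97 and 10.58 with antibiotics. The groups did not overlap, and the highest value was that of antibiotics replicate 3. The difference was 0.47 (SE 0.15, limma adjusted p = 0.281) over 6 arrays, 0.36 within the common run and 0.31 without antibiotics replicate 3.

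The promoters of these genes, and of others the comparison turns on, are shown for their letters. RefSeq windows on GRCm38.p6, from 250 bases before to 50 after a gene's start, were matched by symbol for 26 of the 33 members (32 windows). Capitals mark matches on either strand to the SREBP patterns TCACNCCAC and TCANCCCAC, the NF-Y box CCAAT, the GC box GGGCGG and the E-box CACGTG. Other forms of SREBP site were not searched for, so lower case does not show that one is absent. Each stretch covers the 200 bases before the start, 5′ to 3′ on the gene's strand. Hmgcs1 is shown because it was the 1 member with both SREBP patterns before its start, at a single overlapping site whose first base lies at -137. Srebf1, Fasn and Acly are shown as the members with non-overlapping, higher values, and Elovl6 as the one with non-overlapping, lower values. Of 3 Srebf1 starts, the one with the most matches (3) is shown.
Hmgcs1, chr13:119690151-119690350, plus strand: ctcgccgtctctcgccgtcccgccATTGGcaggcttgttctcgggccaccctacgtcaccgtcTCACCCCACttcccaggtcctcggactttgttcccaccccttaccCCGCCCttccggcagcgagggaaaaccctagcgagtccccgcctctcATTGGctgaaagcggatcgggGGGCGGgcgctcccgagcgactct
Srebf1, chr11:60210472-60210671, minus strand: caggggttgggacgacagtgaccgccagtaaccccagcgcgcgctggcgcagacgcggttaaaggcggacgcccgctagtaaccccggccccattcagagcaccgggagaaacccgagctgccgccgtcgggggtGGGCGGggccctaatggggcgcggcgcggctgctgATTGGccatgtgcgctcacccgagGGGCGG
Fasn, chr11:120824548-120824747, minus strand: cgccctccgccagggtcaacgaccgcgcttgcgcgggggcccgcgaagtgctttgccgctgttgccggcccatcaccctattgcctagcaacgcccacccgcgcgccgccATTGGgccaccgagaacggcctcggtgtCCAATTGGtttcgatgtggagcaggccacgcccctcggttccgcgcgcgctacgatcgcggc
Acly, chr11:100528001-100528200, minus strand: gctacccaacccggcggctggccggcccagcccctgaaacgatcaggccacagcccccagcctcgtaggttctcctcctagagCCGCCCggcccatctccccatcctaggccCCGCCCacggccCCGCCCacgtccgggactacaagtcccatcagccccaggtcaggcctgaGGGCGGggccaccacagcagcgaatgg
Elovl6, chr3:129532186-129532385, plus strand: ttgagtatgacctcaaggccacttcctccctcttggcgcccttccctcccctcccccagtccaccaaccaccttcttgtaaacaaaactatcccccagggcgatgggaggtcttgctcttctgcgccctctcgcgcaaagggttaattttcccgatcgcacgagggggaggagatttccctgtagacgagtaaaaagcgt

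Over the windows of 300 bases, the NF-Y box was found in 23 of 32 member windows (71.9%) and in 37.4% of all 32851 windows. The GC box was also found in 23 of 32, against 35.7% of all windows. Counted by gene, the NF-Y box was found for 22 of 26 members and 41.1% of all 27025 genes. The GC box was found for 21 of 26 and 38.2%. All windows include those of genes not tested here. The E-box was found in 5 of 32, those of Hsd17b7, Insig1, Dhcr7, Sc5d and Elovl5, against 7.15% of all windows. The SREBP pattern TCACNCCAC was found in 1 of 32 (Hmgcs1) against 1.24%, and TCANCCCAC in 2 of 32 (Hmgcs1 and Elovl5) against 1.38%. The 3 NF-Y boxes shown for Fasn include a pair that overlap on opposite strands. These matches are letters in a window and were not tested as sites. A window without a match to either SREBP pattern may still hold an SREBP site of another form.

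**Figure D2:**
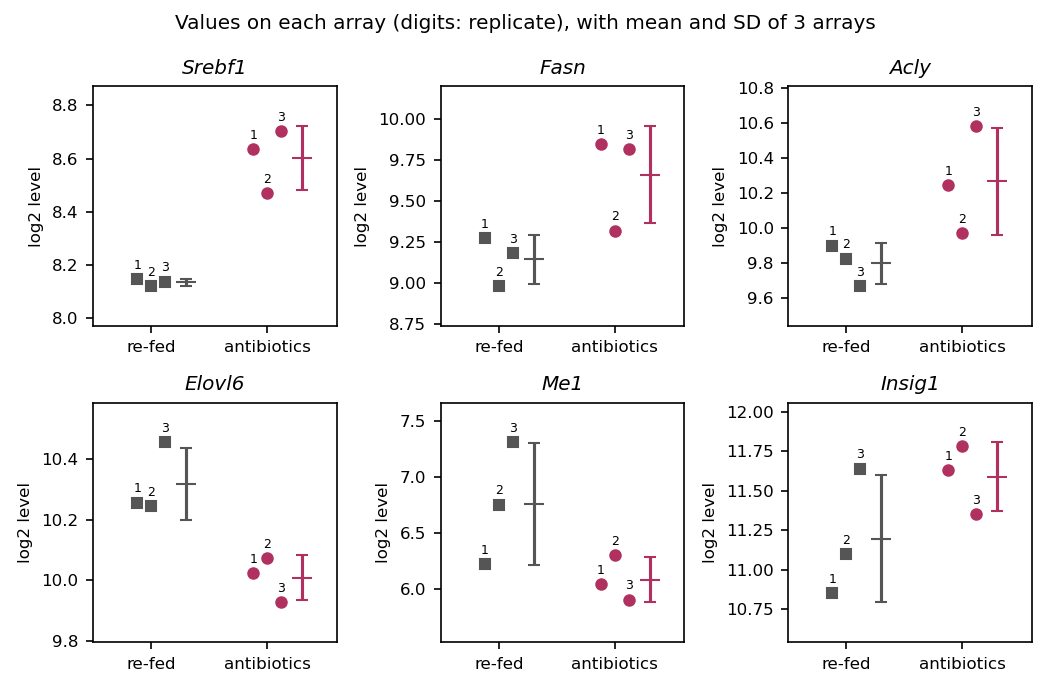
Log2 level on each array (y axis, a range of its own per panel) of 6 genes, with re-fed arrays as squares, antibiotics arrays as circles, digits for the replicate and bars for the mean and SD of 3 arrays. Srebf1, Fasn, Acly and Elovl6 separate the groups, while Me1 and Insig1 overlap.

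Some members of the fatty acid branch had the opposite sign. Elovl6 encodes the elongase that lengthens palmitate to stearate. It stood at 10.26, 10.24 and 10.45 re-fed and at 10.02, 10.07 and 9.93 with antibiotics, and the groups did not overlap. The difference was -0.31 (SE 0.11, limma adjusted p = 0.295) and -0.30 within the common run.

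Me1 encodes cytosolic malic enzyme, a source of NADPH for fatty acid synthesis. Its levels were 6.22, 6.75 and 7.31 re-fed and 6.04, 6.30 and 5.90 with antibiotics. Antibiotics replicate 2 lay above re-fed replicate 1, so the groups overlapped, and the re-fed arrays spread over 1.09. The difference of -0.68 (SE 0.24, limma adjusted p = 0.299) became -0.86 within the common run (adjusted p = 0.093) and -0.41 without re-fed replicate 3. A further Me1 probe set gave -0.74. Both lay near the floor for dim signal (5.81), with means over 6 arrays of 6.42 and, for the further one, 6.12.

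Elovl5, the elongase of polyunsaturated fatty acids, stood at 9.05, 8.87 and 8.50 re-fed and 8.64, 8.15 and 8.93 with antibiotics. The groups overlapped, and the difference of -0.23 (SE 0.20) lay between -0.41 and -0.024 when any 1 array was left out.

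All 4 desaturases had higher means with antibiotics, and in all 4 the groups overlapped. Fads1, the delta-5 desaturase of polyunsaturated fatty acids, stood at 8.30, 7.80 and 7.53 re-fed and at 8.13, 8.09 and 8.93 with antibiotics. Re-fed replicate 1 lay above antibiotics replicates 1 and 2. The difference of 0.50 (SE 0.25, limma adjusted p = 0.444) was 0.23 without antibiotics replicate 3, 0.72 without re-fed replicate 1 and 0.44 within the common run.

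Fads2, the delta-6 desaturase that acts before Fads1, stood at 11.23, 11.03 and 10.49 re-fed and 11.17, 11.08 and 11.55 with antibiotics. It had the same low array as Fads1, re-fed replicate 3, and the same high one, antibiotics replicate 3. Its difference was 0.35 (SE 0.20) over 6 arrays, 0.21 without antibiotics replicate 3 and 0.13 without re-fed replicate 3. It was 0.36 within the common run and 0.51 without re-fed replicate 1.

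The stearoyl-CoA desaturases Scd1 and Scd2 introduce the double bond of oleate. Scd1 stood at 9.21, 8.87 and 8.68 re-fed and 9.001, 8.94 and 9.76 with antibiotics. Its difference of 0.31 (SE 0.22) shrank to 0.048 without antibiotics replicate 3. It was 0.19 within the common run and 0.46 without re-fed replicate 1. Scd2 stood at 11.89 to 12.27 re-fed and at 12.38, 12.07 and 12.53 with antibiotics. Its difference was 0.27 (SE 0.15), 0.17 without antibiotics replicate 3 and 0.28 within the common run. The paralogs are similar in sequence, and signal shared between their probe sets was not examined.

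Acaca, the acetyl-CoA carboxylase that makes malonyl-CoA for Fasn, showed next to no difference. Its levels were 8.27, 8.15 and 8.05 re-fed and 8.25, 8.11 and 8.18 with antibiotics (0.020, SE 0.10, 95% interval -0.21 to 0.26). Acss2, which makes acetyl-CoA from acetate, differed by 0.16 (SE 0.13), with 10.07 to 10.48 re-fed and 10.31 to 10.58 with antibiotics, and by 0.056 without re-fed replicate 3 and 0.26 without re-fed replicate 1.

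The sterol branch had a median difference of 0.15 over its 20 genes, 16 above 0 and 4 below, against 0.0033 and 50.7% above 0 over all genes tested. The fatty acid branch had a median of 0.29 over 12 genes, 9 above and 3 below. Many genes of a branch shared their high and low arrays, as given below, so these counts are not of independent genes. Within the common run the medians were 0.076 and 0.26. With the deposited scaling, the sterol median turned to -0.025 and that of the fatty acid branch was 0.14. That scaling moved the median of all genes to -0.12. Relative to it, the branch medians were 0.093 and 0.25. The smallest adjusted p among sterol genes was 0.447, for Insig1. The unadjusted 95% intervals of the 20 sterol differences all lay between -0.54 and 0.83, so none reached a doubling or a halving.

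Of the sterol regulators, Srebf2 stood at 10.02, 9.96 and 10.03 re-fed and 10.24, 9.91 and 9.90 with antibiotics. The groups overlapped, with a difference of 0.015 (SE 0.12, 95% interval -0.25 to 0.28). The interval of Srebf1, 0.24 to 0.70, overlaps it in part, and the 2 genes were not tested against each other.

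Insig1, which retains the Scap complex and is itself induced by SREBP, stood at 10.85, 11.10 and 11.64 re-fed and 11.63, 11.78 and 11.35 with antibiotics. Re-fed replicate 3 lay among the antibiotics values. The difference was 0.39 (SE 0.20, limma adjusted p = 0.447), or 1.31-fold, and it lay between 0.22 and 0.61 when any 1 array was left out. Stard4, a carrier of cholesterol between membranes, differed by 0.20 (SE 0.12), with 8.92 to 9.19 re-fed and 9.17 to 9.43 with antibiotics, and by 0.12 without antibiotics replicate 3.

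Among the mevalonate enzymes, Hmgcs1, the cytosolic HMG-CoA synthase, had a negative difference. It stood at 10.75, 10.59 and 11.34 re-fed and 10.82, 10.57 and 11.00 with antibiotics (-0.10, SE 0.19). The sign turned without re-fed replicate 3 (0.12) and without antibiotics replicate 2 (0.014). The other 5 mevalonate genes differed by 0.073 to 0.21, with an order that changed when 1 array was left out. Idi1, the isopentenyl-diphosphate isomerase, differed by 0.21 (SE 0.15), and by 0.065 without antibiotics replicate 3 and 0.066 within the common run. Pmvk, phosphomevalonate kinase, differed by 0.20 (SE 0.16; 0.12 to 0.34 with any 1 array left out). Mvd, the decarboxylase that follows it, differed by 0.17 (SE 0.17), and by 0.036 without antibiotics replicate 1 and 0.35 without re-fed replicate 3. Mvk, mevalonate kinase, differed by 0.16 (SE 0.13; 0.083 to 0.26 with any 1 array left out), and Fdps, which makes farnesyl diphosphate, by 0.073 (SE 0.15; -0.046 to 0.19).

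The squalene steps form the first committed part of the route to sterols. Lss, which closes squalene epoxide into lanosterol, stood at 7.93, 7.92 and 8.32 re-fed and 8.67, 8.07 and 8.38 with antibiotics. Antibiotics replicate 2 lay under re-fed replicate 3, and the difference was 0.32 (SE 0.17, limma adjusted p = 0.469), 0.17 without antibiotics replicate 1 and 0.47 without antibiotics replicate 2. Sqle, the squalene epoxidase, overlapped between the groups, with 9.46, 8.997 and 9.58 re-fed and 9.55, 9.10 and 9.45 with antibiotics (0.023, SE 0.17). Fdft1, the squalene synthase, had 2 probe sets of opposite sign, 0.14 (SE 0.19) for the one with the higher mean and -0.14 for the other.

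Of the 8 enzymes after lanosterol, 5 had higher and 3 lower means with antibiotics. Nsdhl, a sterol dehydrogenase, stood at 9.57, 9.50 and 9.72 re-fed and 9.90, 9.60 and 10.07 with antibiotics (0.26, SE 0.14, limma adjusted p = 0.459). Antibiotics replicate 2 kept its groups from separating, and the difference was 0.16 without antibiotics replicate 3 and 0.39 without replicate 2. Hsd17b7 differed by 0.22 (SE 0.19), Cyp51, the lanosterol demethylase, by 0.21 (SE 0.16), and Ebp, the sterol isomerase, by 0.15 (SE 0.11). With any 1 array left out, Hsd17b7 ran from 0.12 to 0.43, Cyp51 from 0.12 to 0.37 and Ebp from 0.097 to 0.21, each highest without re-fed replicate 3. Sc5d, a sterol desaturase, varied least within the groups, with 9.90 to 9.98 re-fed and 9.95 to 10.06 with antibiotics (0.050, SE 0.096).

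The last step of that route lay on the other side. Dhcr7, which reduces the immediate precursor to cholesterol, stood at 9.51, 9.46 and 9.87 re-fed and 9.57, 9.42 and 9.31 with antibiotics (-0.18, SE 0.13). Its difference stayed below 0 when any 1 array was left out (-0.26 to -0.051). Tm7sf2, a sterol reductase, and Msmo1, the methylsterol monooxygenase, differed by -0.052 (SE 0.10) and -0.014 (SE 0.17).

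The spread between arrays of a group was wide for these genes. The pooled SD within groups had a median of 0.23 over the 32 members and 0.15 over all genes tested, and 24 of the 32 exceeded the latter. The members also shared their high and low arrays. Among antibiotics arrays, replicate 2 was the lowest for 26 of 32 members (16 of 20 sterol, 10 of 12 fatty acid), against 32.5% of all genes tested. Among re-fed arrays, replicate 2 was the highest for 0 of 32, against 24.3%.

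The branches parted on re-fed replicate 3. It was the highest re-fed array for 15 of 20 sterol genes, against 36.3% of all genes tested, and for 2 of 12 fatty acid genes. It was the lowest re-fed array for 7 of 12 fatty acid genes, against 28% of all genes tested, and for 1 of 20 sterol genes. Fdft1 shows the size of this spread, with 10.41, 10.79 and 11.30 on the re-fed arrays against 11.02, 10.87 and 11.02 with antibiotics. The re-fed values of Msmo1 (10.18, 10.21 and 10.79) and Dhcr7 had the same high array.

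**Figure D3:**
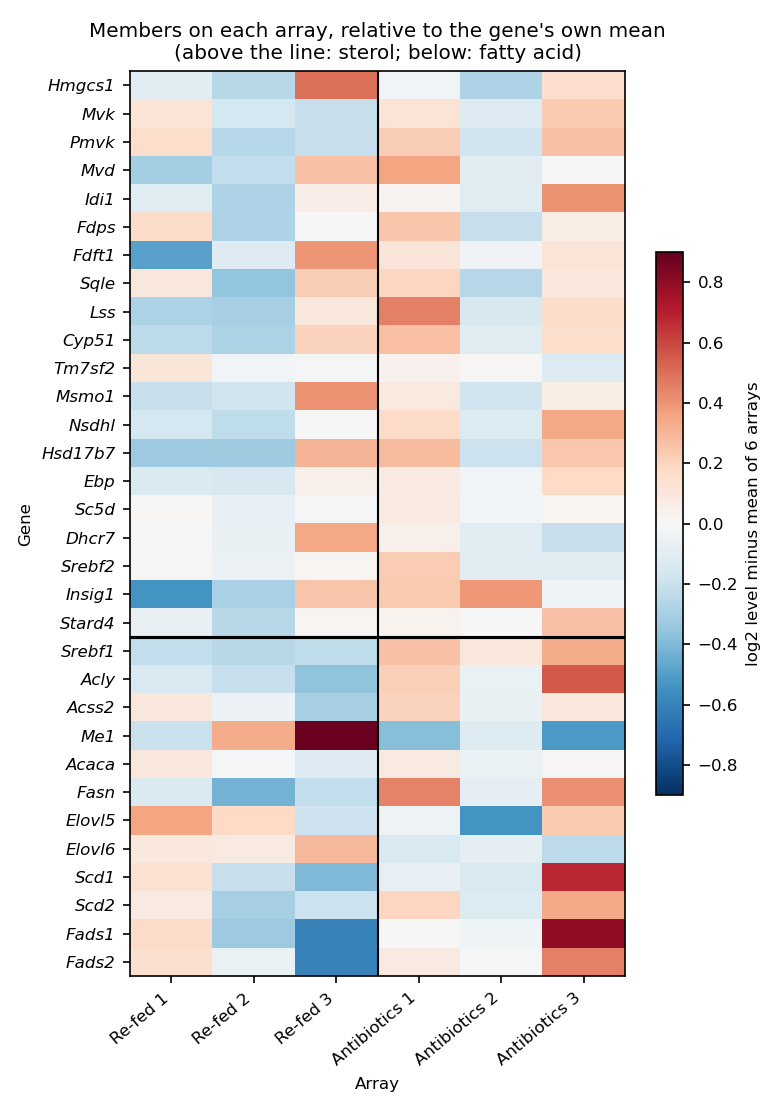
Heat map of the 32 genes (rows, sterol above the horizontal line, fatty acid below) on the 6 arrays (columns), as log2 level minus the gene's mean over 6 arrays. Re-fed replicate 3 is high for most sterol genes and low for the desaturases, and antibiotics replicate 2 is pale or blue for most rows.

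As a mean deviation from each gene's 6-array mean, the sterol branch stood at -0.11, -0.21 and 0.14 in re-fed replicates 1 to 3 and at 0.16, -0.094 and 0.11 in antibiotics replicates 1 to 3. The fatty acid branch stood at 0.042, -0.10 and -0.17 re-fed and at 0.070, -0.10 and 0.26 with antibiotics. Both overlapped between the groups. The sterol mean less the fatty acid mean was -0.16, -0.10 and 0.31 re-fed and 0.093, 0.0087 and -0.15 with antibiotics. The antibiotics arrays lay within the range of the re-fed arrays, so the balance of the branches did not separate the groups. Taken as medians on each array, the sterol less fatty acid deviation differed by -0.057 between the groups, less than its SD between arrays of a group (0.21). The median of the sterol genes' differences less that of the fatty acid genes was -0.14, and it turned to 0.036 without re-fed replicate 3.

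**Figure D4:**
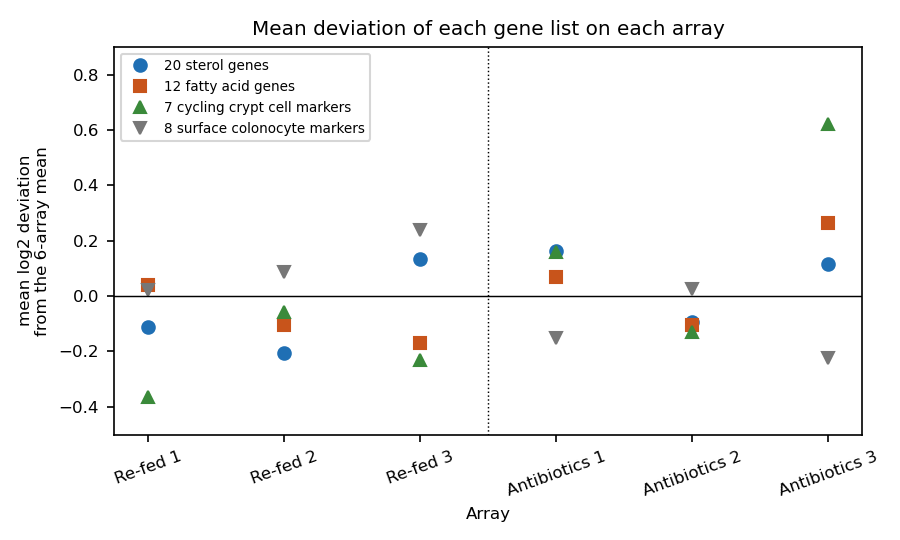
Mean log2 deviation from the 6-array mean (y axis) on each array (x axis) for the 20 sterol genes, the 12 fatty acid genes and the tested markers of cycling crypt cells (7) and surface colonocytes (8). Antibiotics replicate 3 is the highest array for the fatty acid genes and for the cycling markers.

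Markers of cell position are given beside these genes. The mean level of 7 cycling markers was 7.68 to 7.99 re-fed and 7.92 to 8.67 with antibiotics, so the arrays overlapped. All 7 had higher means with antibiotics, with a median difference of 0.50 over 6 arrays and 0.19 within the common run. Among the 7, 0 passed the adjusted limma test, 4 had an unadjusted p under 0.05, and 3 passed with array weights. With those weights Top2a turned to -0.094. The highest array for the mean of the cycling markers was antibiotics replicate 3, as for Acly, Srebf1 and the 4 desaturases. The same array was the highest for the sterol genes Mvk, Pmvk, Idi1, Nsdhl, Ebp and Stard4. Among antibiotics arrays alone it was the highest for 14 of 32 members (7 sterol, 7 fatty acid), against 4474 of 12071 genes tested. Surface colonocyte markers had a mean level of 12.23 to 12.45 re-fed and 11.99 to 12.23 with antibiotics, and the ranges just overlap. Of these 8, 3 had higher and 5 lower means, 0 passed the adjusted limma test, 5 had an unadjusted p under 0.05, and 5 passed with array weights. Both sets of 5 were the same genes: Aqp8, Slc9a3, Scnn1a and Emp1, which were lower, and Guca2b, which was higher (0.52). The 8 markers of the sorted epithelium all had lower means with antibiotics (median difference -0.11), with a mean level of 12.14 to 12.21 re-fed and 11.97 to 12.09 with antibiotics that did not overlap. Of these, 0 passed the adjusted limma test, 2 had an unadjusted p under 0.05 (Krt20 and Cdx2), and 1 passed with array weights (Krt20). The part of these markers in the members' differences was not tested, and a change in the share of cells cannot be told apart from a change per cell. Of 5 adipocyte markers, 3 lay under the floor, and the mean level of the 5 was 5.34 to 5.52 re-fed and 5.35 to 5.50 with antibiotics. Of 10 leukocyte markers with a probe set, 8 lay under the floor (mean level 5.24 to 5.27 and 5.28 to 5.30), as did 4 of 8 markers of stroma and endothelium (5.93 to 6.10 and 5.92 to 6.09).

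Of 62 tested genes in 5 further lists of the pathway, 0 passed the adjusted limma test in either direction in the unweighted fit over 6 arrays. At an unadjusted p under 0.05 there were 8, or 12.9%, a share near the 12.6% of all genes tested. The fit with array weights called 7 (11.3%, against 9.68% of all genes tested), 3 higher with antibiotics (Mlxipl, Cyp27a1 and Mylip) and 4 lower (Erlin1, Acacb, Ggps1 and Cept1), with limma adjusted p from 0.00226 for Erlin1 to 0.0417 for Cept1. Of 12 tested genes that control SREBP, 7 were above 0 and 5 below (median 0.066, and -0.012 within the common run). Erlin1, an endoplasmic reticulum protein that binds cholesterol and restrains SREBP activation, stood at 9.14, 9.33 and 9.37 re-fed and 8.53, 8.66 and 8.59 with antibiotics. The groups lay well apart, with a difference of -0.69 (SE 0.11, limma adjusted p = 0.0692). Within the common run Erlin1 passed (-0.75, adjusted p = 0.0371). Nfyb, a subunit of the factor that binds the CCAAT box, differed by -0.38 (SE 0.14), and Fbxw7, the ubiquitin ligase subunit that marks active SREBP for degradation, by -0.23 (SE 0.11).

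Of 12 other tested genes of fatty acid synthesis, 4 were above 0 and 8 below (median -0.011). Mlxipl encodes ChREBP, the carbohydrate-responsive factor that shares lipogenic targets with SREBP1c. It stood at 7.11, 7.05 and 6.93 re-fed and 7.72, 7.64 and 7.52 with antibiotics, with no overlap. The difference was 0.60 (SE 0.11, limma adjusted p = 0.0868), and Mlxipl passed within the common run (0.69, adjusted p = 0.0467). Acacb, the carboxylase whose malonyl-CoA restrains fatty acid oxidation, stood at 6.90, 7.03 and 7.09 re-fed and 6.59, 6.53 and 6.39 with antibiotics (-0.50, SE 0.11, adjusted p = 0.127). Its paralog Acaca, above, differed by 0.020. Fads3 differed by -0.16 (SE 0.18).

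Of 13 tested genes of sterol export, esterification and LXR, 7 were above 0 and 6 below (median 0.0081). Cyp27a1, a sterol hydroxylase that makes an oxysterol ligand of LXR, stood at 8.70, 8.41 and 8.31 re-fed and 8.99, 9.24 and 8.83 with antibiotics (0.54, SE 0.14, limma adjusted p = 0.202). Its groups did not overlap. The LXR targets Mylip and Abcg1 had opposite signs, 0.32 (SE 0.12) for Mylip, a ubiquitin ligase for lipoprotein receptors, and -0.32 (SE 0.18) for the exporter Abcg1.

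Of 9 other tested genes of the sterol pathway, 6 were above 0 (median 0.024, and -0.13 within the common run). Ggps1, which diverts farnesyl diphosphate to geranylgeranyl diphosphate, differed by -0.38 (SE 0.16). Nus1, a subunit of the enzyme that makes dolichol precursors, differed by -0.29 (SE 0.13), and Tmem97, a sterol-responsive membrane protein, by 0.28 (SE 0.18). Of 16 tested genes of acyl-CoA, glyceride and phospholipid synthesis, 5 were above 0 (median -0.078). Cept1, which completes phosphatidylcholine and phosphatidylethanolamine, stood at 10.09, 10.05 and 10.14 re-fed and 9.81, 9.82 and 9.68 with antibiotics (-0.32, SE 0.098, limma adjusted p = 0.257). Pcyt1a, the rate-limiting enzyme of phosphatidylcholine synthesis, differed by -0.25 (SE 0.11) and the acyltransferase Agpat3 by 0.21 (SE 0.097).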

How the data were processed

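Per the submitters' processing notes, the authors summarised probes with RMA, and the deposited values are on a log2 scale for 35557 probe sets on each of 6 arrays. The RMA version is not given in the sources used here. Since array medians differ (5.63 to 6.17), quantile normalisation was applied across the 23410 probe sets that carry a gene name in the platform annotation. Of these, 21789 name 1 gene and represent 19938 genes, each by its probe set with the highest mean. A floor at the 40th percentile of probe set means (5.81) removed dim genes. The common run was inferred from the values, as arrays sharing over 300 exact values with at least a pair of others, and not from a label.

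Comparisons used limma 3.58.1 under R 4.3.3 (lmFit, eBayes, two-sided, Benjamini-Hochberg over 12071 genes, threshold 0.05), tested on simulated data first. Errors are SDs over 3 arrays or limma's standard errors, and the number of arrays limits the precision. Branch medians are descriptions without a test. Alternatives covered scaling, dim filters, the common run, probe set means, array weights, an intensity trend, a replicate block and each array left out. The members and lists were chosen with earlier results of these data known. All members are described, and of each further list the 3 genes with the smallest unadjusted p. List members that were dim or without their own probe set were not analysed.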

Additional observations from a re-analysis of the deposited data

How the results depend on the processing

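No member was called in any setting except array weights, which called 4 (Srebf1 0.49, Acly 0.45, Fasn 0.68 and Me1 -0.80, adjusted p from 0.00905 to 0.0276). The count of genes called over all genes was 7 as reported, 45 with the deposited scaling, 2 with no dim filter, 43 with the stricter filter, 54 in the common run, 63 there with the deposited scaling, 1169 with array weights, 43 with the intensity trend and 0 to 11 with any 1 array left out. With 0 called, 1040 genes had an unadjusted p under 0.05. The replicate block also gave 7 genes and 0 members. With 1 array per group in each block it cannot change the branch medians (0.15 and 0.29). Deviations of same-numbered arrays had r of 0.021, -0.034 and -0.22 across genes, and those of differently numbered arrays had r from -0.17 to 0.24. With 3 arrays per group, these values cannot show whether the numbers pair the samples.

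The sterol median was -0.025 with the deposited scaling, -0.016 with it in the common run and 0.09 to 0.22 with any 1 array left out, and that of the fatty acid branch 0.16 to 0.42. Their difference ran from -0.30 to 0.036. Of 32 members, 16 kept their sign in every setting in which they were tested, 6 sterol and 10 fatty acid. Me1, 1 of the 10, fell under the stricter dim filter, which left 31 members. The dim filters, the intensity trend and the replicate block leave each tested difference unchanged, so they could not turn a sign. Signs turned with the deposited scaling for Mvk (-0.030), Mvd (-0.020), Fdps (-0.11), Fdft1 (-0.011), Sqle (-0.16), Ebp (-0.046), Sc5d (-0.13), Srebf2 (-0.17), Stard4 (-0.00024), Acss2 (-0.023) and Acaca (-0.16). Relative to the median of all genes, added after the data were seen, 4 still turned, Sqle (-0.041), Sc5d (-0.013), Srebf2 (-0.056) and Acaca (-0.039). In the common run Fdft1 (-0.098) and Tm7sf2 (0.039) turned. With the deposited scaling there, Mvd (-0.012), Idi1 (-0.047), Fdft1 (-0.16), Sqle (-0.052), Hsd17b7 (-0.064), Ebp (-0.029), Sc5d (-0.014), Srebf2 (-0.018) and Acaca (-0.036) turned. Fdft1 turned with probe set means (-0.0023), and Tm7sf2 (0.022) and Msmo1 (0.035) with array weights. With 1 array left out, signs turned within the ranges of Hmgcs1 (-0.25 to 0.12), Msmo1 (-0.12 to 0.19), Sqle (-0.15 to 0.16), Fdft1 (-0.074 to 0.37), Fdps (-0.046 to 0.19), Srebf2 (-0.094 to 0.072) and Acaca (-0.031 to 0.076). The cause was not tested.

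List medians moved by more than the spread between arrays as follows. Genes that control SREBP were at -0.13 with the deposited scaling, -0.010 relative to all genes, -0.012 in the common run, -0.12 there with the deposited scaling, 0.0057 with array weights and 0.0066 to 0.10 with 1 array left out. Other sterol genes were at -0.12, and at -0.13 and -0.21 in the common run. Sterol export was at -0.20 (-0.16 to 0.029 with 1 array left out), other fatty acid genes at -0.20 and -0.13, and glyceride synthesis at -0.23.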
